A study of Mus musculus with 12 samples.

Results

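Right ventricles (RV) of mice whose pulmonary artery had been narrowed with a clip (pulmonary artery clipping, PAC) were compared between 6 weeks and 1 week after the operation. The comparison rests on the 2 PAC arrays of 6 weeks and the 2 PAC arrays of 1 week, taken by their titles from 12 arrays in all, and on 19938 genes. The 6-week mice were male C57BL/6 aged 18 weeks and the 1-week mice male C57BL/6 aged 13 weeks, so time since clipping and age cannot be told apart here. All 4 ventricles had carried a closed haemoclip around the pulmonary artery, and no sham RV array of 1 or 6 weeks is used here. Hearts had been perfused and cut into left ventricle, septum and RV before RNA was measured. As a background level, 2 sham RV arrays are given, from male C57BL/6 mice aged 15 weeks, 3 weeks after a sham operation, and levels of 2 PAC arrays at 3 weeks and the same age are given for the course. The labels name neither the substrain of C57BL/6 nor whether each array held the tissue of a separate animal, so p-values measure the spread between these arrays, which may be technical.

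A clip on the pulmonary artery loads the right ventricle with pressure. The muscle cells answer by growth without division and by re-expressing fetal genes such as those for natriuretic peptides and slow myosin. Fibroblasts, endothelial cells and macrophages divide early in such a response, and fibroblasts lay down a matrix that is first provisional and later more cross-linked. Dividing cells switch on the genes for mitosis together, through a complex that binds a short promoter element called the cell cycle genes homology region (CHR), often with CCAAT boxes for the factor NF-Y close by.

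The letters of both elements are shown for the 5 cell division genes that fell, of which Knl1 is in no list, as a feature of these genes that was not read from the arrays. The windows are RefSeq promoters of 300 bases in build GRCm38.p6, written 5′ to 3′ along the gene's own strand, with CHR (TTTGAA or TTCGAA) and CCAAT in capitals on either strand. Top2a lies at chr11:99024140-99024439 on the minus strand, Ncapg at chr5:45669675-45669974 on the plus strand, Ccnb2 at chr9:70421505-70421804 on the minus strand, Ckap2 at chr8:22185770-22186069 on the minus strand and Knl1 at chr2:119046869-119047168 on the plus strand.
Top2a: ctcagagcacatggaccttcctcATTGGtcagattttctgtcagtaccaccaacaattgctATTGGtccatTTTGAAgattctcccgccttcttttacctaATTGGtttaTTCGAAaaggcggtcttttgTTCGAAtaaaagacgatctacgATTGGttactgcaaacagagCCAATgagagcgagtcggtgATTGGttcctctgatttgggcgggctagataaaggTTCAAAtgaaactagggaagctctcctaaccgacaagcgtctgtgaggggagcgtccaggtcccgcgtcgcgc
Ncapg: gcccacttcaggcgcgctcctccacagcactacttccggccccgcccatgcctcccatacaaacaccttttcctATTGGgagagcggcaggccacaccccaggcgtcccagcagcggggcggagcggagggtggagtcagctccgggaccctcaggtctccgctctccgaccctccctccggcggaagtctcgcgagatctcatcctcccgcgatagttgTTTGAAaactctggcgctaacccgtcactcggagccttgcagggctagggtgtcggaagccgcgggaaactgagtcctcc
Ccnb2: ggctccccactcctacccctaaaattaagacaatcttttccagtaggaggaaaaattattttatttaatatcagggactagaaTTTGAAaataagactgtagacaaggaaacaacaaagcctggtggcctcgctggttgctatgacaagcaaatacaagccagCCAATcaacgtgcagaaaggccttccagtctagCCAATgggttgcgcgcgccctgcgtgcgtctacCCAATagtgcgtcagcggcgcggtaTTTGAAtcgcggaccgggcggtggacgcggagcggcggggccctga
Ckap2: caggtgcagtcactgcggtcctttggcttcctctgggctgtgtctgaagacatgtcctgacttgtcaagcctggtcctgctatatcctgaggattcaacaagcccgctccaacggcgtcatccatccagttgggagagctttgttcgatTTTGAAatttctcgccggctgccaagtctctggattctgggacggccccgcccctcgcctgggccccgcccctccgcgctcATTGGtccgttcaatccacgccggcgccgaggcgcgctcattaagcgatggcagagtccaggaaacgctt
Knl1: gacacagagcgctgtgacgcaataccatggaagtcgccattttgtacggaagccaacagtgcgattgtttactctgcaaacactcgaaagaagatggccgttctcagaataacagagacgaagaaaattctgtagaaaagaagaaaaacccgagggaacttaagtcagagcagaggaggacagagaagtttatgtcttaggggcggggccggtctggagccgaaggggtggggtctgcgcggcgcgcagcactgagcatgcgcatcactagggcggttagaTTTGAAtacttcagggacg
Top2a held 4 CHR and 6 CCAAT matches, Ccnb2 2 and 3, Ncapg and Ckap2 1 of each, and Knl1 1 CHR and 0 CCAAT. The elements do not overlap in these windows. Of 53 measured genes of mitosis and cytokinesis, 44 had a promoter in the reference, with 48 windows between them. CHR letters stood in 39 of those windows (81.2%), against 16.5% of the 19177 windows of all measured genes. CCAAT stood in 79.2% of the mitosis windows, against 37.4% of all, and both elements in 70.8% against 6.6%. Of the 36 genes of DNA replication 30 had a promoter in the reference, with CHR letters in 17.1% of their 35 windows and CCAAT in 57.1%. A match is a string of letters and not a measured binding site.

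Levels are the deposited log2 expression values, and a change is the log2 level at 6 weeks minus that at 1 week ± the limma standard error (SE). A gene passed at a Benjamini-Hochberg adjusted p of 0.05 over all genes. In all, 19 genes passed, which is 0.0953% of those tested: 12 were lower at 6 weeks (0.0602%) and 7 higher (0.0351%). On each of the 19 the arrays of the 2 times did not overlap, which passing on the same values makes likely. Over all genes 18.4% did not overlap with 6 weeks higher and 17.2% with 6 weeks lower. Of the 19 genes, 12 changed at least 2-fold. At an unadjusted p under 0.05 there were 1944 genes (9.75%), 1092 lower (5.48%) and 852 higher (4.27%). Counts of list members at this p are to be read beside these shares. The median change of all genes was 0.01. The number of calls rests on few arrays. It was 37 without 6-week array 1 and 1 without 6-week array 2, and 488 without 1-week array 1 and 14 without 1-week array 2. Leaving out either 3-week PAC array gave 4, either sham RV array 3, and either of the constricted or sham left ventricle arrays 2, although these do not enter the means compared.

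The pair of 1-week arrays was the least alike of the series (Pearson r = 0.9917 over genes, against 0.9950 to 0.9971 in the other 5 groups, a description over genes that are no replicates). Ventricular muscle markers stood at like levels in every RV array (mean of 5 markers 12.26 to 12.43). Markers of skeletal muscle (7.15 at most), fat (6.47 at most) and lymphocytes (6.72 at most) were low throughout. Atrial and mesothelial markers were not alike across arrays. The mean of 4 defining atrial markers was 7.39 and 7.83 at 6 weeks, against 8.88 and 10.23 at 1 week. Much of that gap came from Bmp10 (4.79 and 4.52 at 6 weeks, against 8.55 and 10.49 at 1 week). The others on 6-week array 2 were close to 1-week array 1 (Myl4 10.20 and 10.28, Myl7 9.52 and 9.58, Sln 7.08 and 7.12). The mean of 3 mesothelial markers was 6.01 and 5.35 at 6 weeks, against 7.37 and 6.55 at 1 week. In whole tissue, fewer cells of a type and less RNA per cell cannot be told apart. Probe sets without a listed gene had array medians of 5.65 to 5.79, and a gene below that level is taken as near background, where a fold is not exact.

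**Figure D1:**
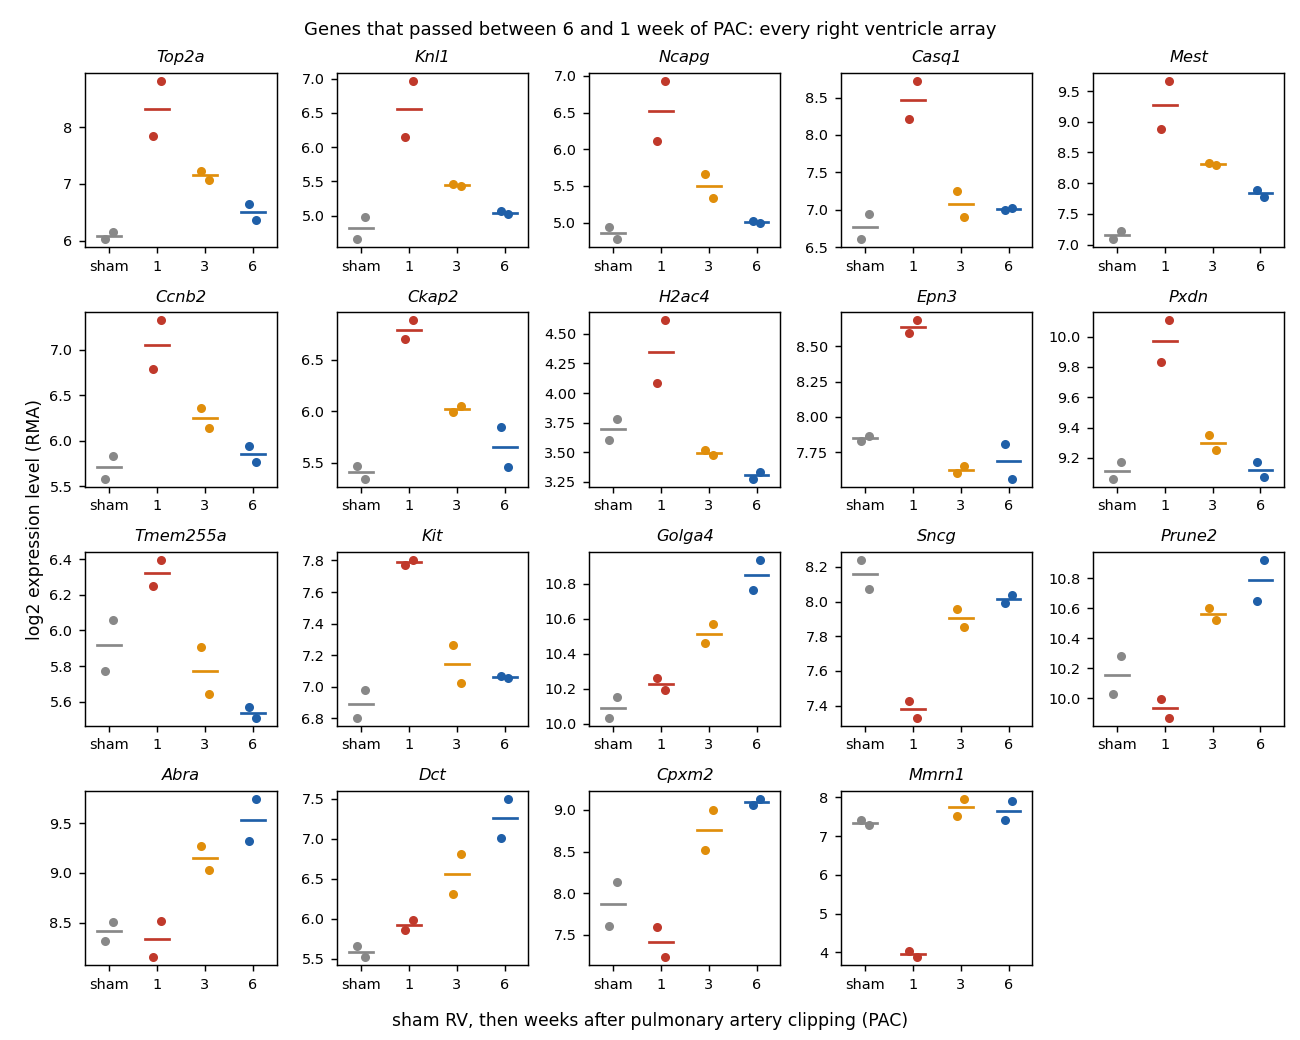
Log2 expression level (vertical axis) of the 19 genes that passed, 1 panel a gene, in sham RV and 1, 3 and 6 weeks after PAC (horizontal axis); points are single arrays and lines are means of 2. In the 12 genes that were lower at 6 weeks the 1-week points stand above all sham points, and Mmrn1 is near 4 at 1 week only. The 12 were chosen for 1-week levels above those at 6 weeks, which favours high 1-week points.

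Of the 12 genes that fell, 5 serve cell division. Top2a, the topoisomerase that untangles chromosomes before they part, read 6.64 and 6.37 at 6 weeks, against 7.85 and 8.81 at 1 week, with 6.02 and 6.15 in sham RV. Both 1-week arrays lay above all the others, array 2 most, and the 6-week arrays lay just above the sham arrays. The gene fell by 1.82 ± 0.24 (3.54-fold, adjusted p = 0.039). The change was -1.34 without 1-week array 2 and -0.96 when all probe sets of the gene were averaged. Ncapg, a subunit of the condensin complex that compacts mitotic chromosomes, read 5.03 and 4.995 at 6 weeks and 6.11 and 6.93 at 1 week (change -1.51 ± 0.21, adjusted p = 0.039). Its 6-week arrays were near background, as were those of Knl1, the kinetochore scaffold, which read 5.06 and 5.02 at 6 weeks and 6.15 and 6.96 at 1 week (change -1.51 ± 0.21, adjusted p = 0.039). Both genes had 1-week arrays that did not overlap with the 6-week arrays, and for both the fold is a size near background. Ccnb2, the B-type cyclin that drives entry into mitosis, fell by 1.20 ± 0.16 (5.94 and 5.77 at 6 weeks, against 6.78 and 7.32 at 1 week, adjusted p = 0.039). Ckap2, which stabilises spindle microtubules, fell by 1.15 ± 0.16 (5.85 and 5.46 at 6 weeks, against 6.71 and 6.88 at 1 week, adjusted p = 0.039). Its 6-week array 2 was near background.

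Of the 53 listed genes of mitosis and cytokinesis 4 passed, all lower at 6 weeks, and 0 passed as higher. All 53 had a negative change, from -1.86 to -0.03, with a median of -0.91 beside 0.01 for all genes. Arrays of the 2 times did not overlap, with the 6-week side lower, for 51 of them, against 17.2% of all genes. At an unadjusted p under 0.05, 47 were lower and 0 higher, against 5.48% and 4.27% of all genes. Ect2, the exchange factor that positions the cleavage furrow, missed the threshold at -1.46 ± 0.23 (5.98 and 5.89 at 6 weeks, against 6.95 and 7.83 at 1 week, adjusted p = 0.051). The mean level over the list was 5.78 and 5.66 at 6 weeks, against 6.32 and 7.0 at 1 week, with 5.56 and 5.62 in sham RV. The 6-week arrays lay slightly above sham and under both 1-week arrays, and for 48 of 53 genes the 3-week mean lay between the means of 1 and 6 weeks. The list means at 6 weeks and in sham RV lay within or under the background medians of 5.65 to 5.79. Only 26 of the 53 genes had a mean level of 6 or more over the 8 RV arrays, so sizes in this list are not exact. The size differed between the 1-week arrays: 50 of the 53 genes were higher on 1-week array 2 than on array 1. The list median was -0.54 without array 2 and -1.23 without array 1. Neither the share of all genes higher on array 2 nor that with 3-week means in between was counted. The number that passed was 42 without 1-week array 1, 3 without 1-week array 2, 3 without 6-week array 1 and 0 without 6-week array 2. The atrial markers were likewise higher on 1-week array 2 (10.23) than on array 1 (8.88), and their part in these changes was not tested.

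**Figure D2:**
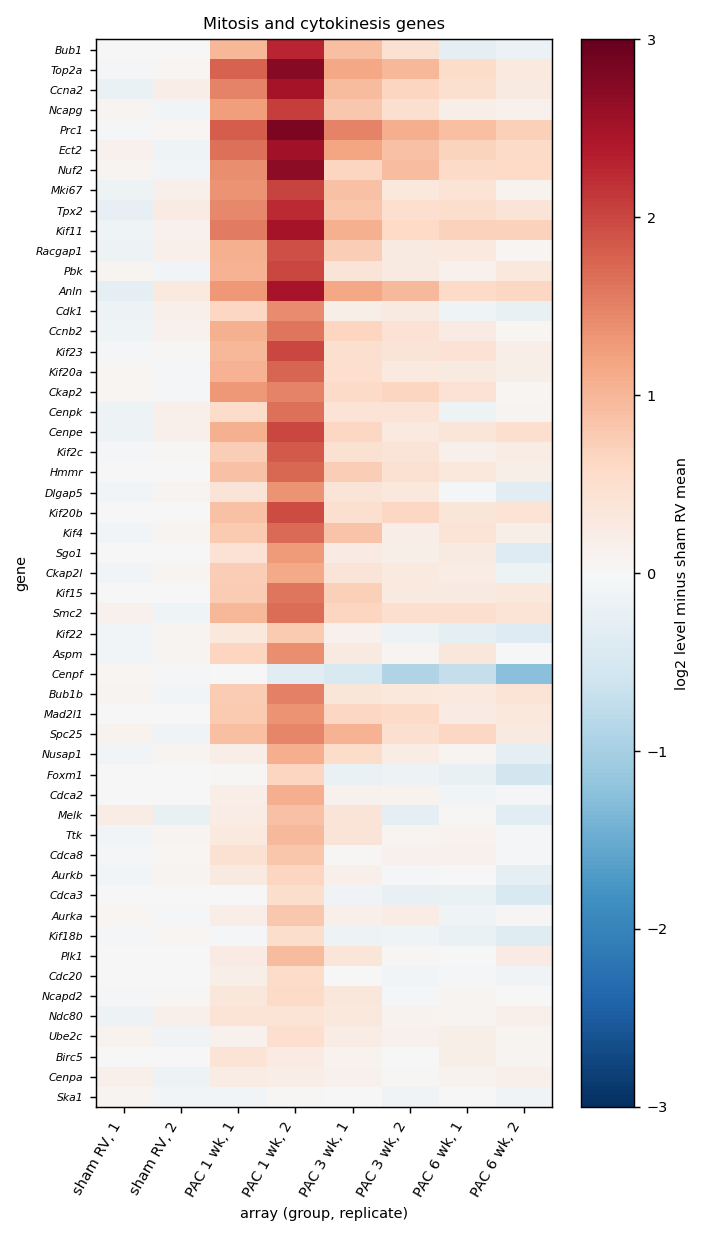
Log2 level minus the sham RV mean (colour) of the 53 mitosis and cytokinesis genes (rows, ordered by their change from the most negative) on each RV array (columns, by group and replicate). The 1-week columns are red for most genes, array 2 more than array 1, and the 6-week columns are close to the sham columns.

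No gene of DNA replication and S phase passed. Of 36 measured, all had a negative difference, with a median of -0.41. At an unadjusted p under 0.05, 23 were lower and 0 higher, against 5.48% and 4.27% of all genes. Hells, a chromatin remodelling helicase of dividing cells, stood at -1.10 ± 0.21 (5.85 and 5.82 at 6 weeks, against 6.53 and 7.33 at 1 week, adjusted p = 0.082). Atad2, a chromatin-bound ATPase, stood at -0.65 ± 0.14 (adjusted p = 0.12), Clspn, a mediator of the replication checkpoint, at -0.65 ± 0.16 (adjusted p = 0.16) and the primase subunit Prim1 at -0.78 ± 0.19 (adjusted p = 0.17). The list median was -0.20 without 1-week array 2 and -0.28 without 6-week array 2, with 10 members lower at an unadjusted p under 0.05 in each case. H2ac4, a histone H2A gene, passed at -1.04 ± 0.15 (3.28 and 3.33 at 6 weeks, against 4.08 and 4.61 at 1 week, adjusted p = 0.039). All of its arrays were below background and histone H2A genes are close copies of each other, so its value is uncertain.

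The largest change that passed was in Mmrn1, which encodes multimerin, a secreted protein of endothelial cells and platelets. It read 7.41 and 7.90 at 6 weeks, against 4.04 and 3.88 at 1 week, with 7.40 and 7.28 in sham RV and 7.52 and 7.96 at 3 weeks. Both 1-week arrays were below background, and all other RV arrays read 7.28 or more. The fitted change was 3.70 ± 0.24 (adjusted p = 0.00026), which is no exact size because the 1-week level was below background, and it passed under all 18 alternative settings. Across the other 30 measured endothelial markers 0 passed, and the median of the list was 0.00. A C57BL/6 substrain that lacks Mmrn1 by a deletion is known, and whether the 1-week mice were of it was not tested. Sncg, gamma-synuclein, was also low on both 1-week arrays and rose by 0.64 ± 0.09 at 6 weeks (7.99 and 8.04, against 7.43 and 7.33 at 1 week and 8.24 and 8.07 in sham RV, adjusted p = 0.039).

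The other 5 genes that rose did not pass against sham RV at 1 week and passed as higher than sham RV at 6 weeks. Of all 19938 genes 3675 passed against sham RV at 1 week and 1844 at 6 weeks, in either direction. The 5 were chosen for high 6-week and low 1-week values on these same arrays, which favours such a pattern. Their 1-week means minus sham RV were -0.46 ± 0.20 (Cpxm2), -0.22 ± 0.12 (Prune2), -0.08 ± 0.17 (Abra), 0.14 ± 0.09 (Golga4) and 0.34 ± 0.20 (Dct). Cpxm2, a secreted carboxypeptidase-like protein, read 9.06 and 9.13 at 6 weeks, against 7.59 and 7.23 at 1 week, with 7.61 and 8.14 in sham RV. The rise was 1.69 ± 0.20 (3.22-fold, adjusted p = 0.027), and the 6-week arrays lay above both other groups. Abra, the muscle protein STARS that binds actin, read 9.32 and 9.74 at 6 weeks, against 8.15 and 8.51 at 1 week (rise 1.20 ± 0.17, 2.30-fold, adjusted p = 0.039). Its 3-week arrays read 9.27 and 9.03 and its sham RV arrays 8.32 and 8.51, so the 1-week arrays did not stand above sham. Dct, dopachrome tautomerase, an enzyme of melanin synthesis, rose by 1.33 ± 0.20 (7.01 and 7.501 at 6 weeks, against 5.86 and 5.98 at 1 week and 5.65 and 5.52 in sham RV, adjusted p = 0.046). Prune2 rose by 0.85 ± 0.12 (10.65 and 10.92 at 6 weeks, against 9.997 and 9.87 at 1 week and 10.03 and 10.29 in sham RV, adjusted p = 0.039). Golga4, a tethering protein of the Golgi, rose by 0.62 ± 0.09 (10.77 and 10.94 at 6 weeks, against 10.26 and 10.19 at 1 week and 10.03 and 10.15 in sham RV, adjusted p = 0.045). For 6 of the 7 genes that rose, Mmrn1 being the exception, the 3-week mean lay between those of 1 and 6 weeks. A choice of genes by a wide gap between the 2 times favours this, and the share over all genes was not counted.

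Of the 12 genes that fell, 6 do not belong to mitosis itself or to the histones. Mest, an imprinted gene expressed from the paternal copy and active in fetal growth, read 7.89 and 7.78 at 6 weeks, against 8.88 and 9.66 at 1 week, with 7.08 and 7.21 in sham RV (change -1.44 ± 0.19, adjusted p = 0.039). Its 6-week arrays lay above both sham arrays, by 0.68 ± 0.19 in the mean (adjusted p = 0.051 against sham RV, which did not pass). Casq1, the skeletal muscle form of the calcium store protein calsequestrin, fell by 1.45 ± 0.22 (6.99 and 7.03 at 6 weeks, against 8.21 and 8.72 at 1 week, adjusted p = 0.046). Epn3, an endocytic adaptor of the epsin family, fell by 0.95 ± 0.09 (7.81 and 7.56 at 6 weeks, against 8.59 and 8.68 at 1 week, adjusted p = 0.0086). It had the smallest p of the decreases and passed in 16 of 18 alternative settings. Of the other genes that passed, Mmrn1 did so in 18 settings, Cpxm2 in 11 and the remaining 16 in 4 to 8 each, with Casq1, Dct, H2ac4, Kit and Tmem255a in 4. Pxdn, the peroxidase that cross-links collagen IV in basement membranes, fell by 0.85 ± 0.11 (9.17 and 9.07 at 6 weeks, against 9.83 and 10.11 at 1 week, adjusted p = 0.039). Kit, the receptor for stem cell factor, fell by 0.73 ± 0.11 (7.07 and 7.05 at 6 weeks, against 7.77 and 7.81 at 1 week, adjusted p = 0.046). It was the only one of 18 neutrophil and mast cell markers that passed, and the list median was 0.02. Tmem255a fell by 0.78 ± 0.12 (5.57 and 5.51 at 6 weeks, against 6.25 and 6.40 at 1 week, adjusted p = 0.046), with its 6-week arrays near background. All 12 genes that fell were higher on 1-week array 2 than on array 1, as were the atrial markers (10.23 and 8.88), whose part was not tested. The means of all 12 genes at 6 weeks were nearer to sham RV than those at 1 week. The 12 were chosen for 1-week values above their 6-week values, which favours such a pattern. Neither this share nor that of genes higher on 1-week array 2 was counted over all genes.

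**Figure D3:**
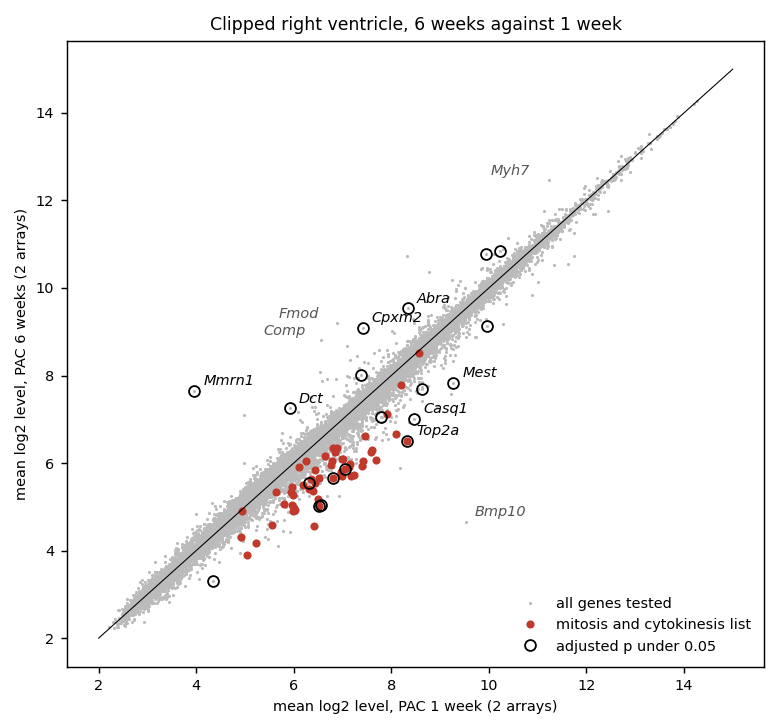
Mean log2 level at 6 weeks (vertical axis) against 1 week (horizontal axis) for each gene tested, 2 arrays a group; red points are the 53 mitosis and cytokinesis genes and rings the 19 genes that passed. The red points lie under the line of equal levels, Mmrn1 far above it, and Bmp10 far below it without passing.

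Most genes of the load response stood above sham RV at both times (21 of 24 by their means at each), and 0 passed between the times. Nppa, atrial natriuretic peptide, read 12.99 and 13.63 at 6 weeks and 12.84 and 13.78 at 1 week, with 10.98 and 10.69 in sham RV. The 1-week arrays enclosed the 6-week arrays, and the change was -0.00 ± 0.38 (95% interval -0.84 to 0.83, adjusted p = 0.999). Acta1, skeletal actin, stood at -0.24 ± 0.31 (95% interval -0.93 to 0.45, adjusted p = 0.88), and the B-type peptide gene Nppb at 0.62 ± 0.42 (95% interval -0.31 to 1.55, adjusted p = 0.72). Myh7, the slow myosin of the fetal ventricle, read 12.12 and 12.80 at 6 weeks, against 10.53 and 11.92 at 1 week, with 9.45 and 10.06 in sham RV. The arrays of the 2 times did not overlap, but the change of 1.24 ± 0.42 did not pass (95% interval 0.31 to 2.16, adjusted p = 0.35). The adult myosin Myh6 was -0.03 ± 0.07 (adjusted p = 0.94). Of 24 load-responsive genes 0 passed, with 1 higher and 1 lower at an unadjusted p under 0.05 and a median of 0.11. Mybpc2, the fast skeletal form of myosin binding protein C, was the lower one at -0.64 ± 0.20 (7.97 and 8.25 at 6 weeks, against 8.38 and 9.12 at 1 week, adjusted p = 0.30). The list median was 0.34 without 1-week array 2 and -0.15 without 1-week array 1, so its sign rests on these arrays. Among 22 sarcomere genes the changes spanned only -0.07 to 0.36, with a median of -0.01 and 0 passed.

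Matrix genes went in both directions between the times, and none passed. Col3a1, a fibrillar collagen, read 10.29 and 10.82 at 6 weeks, against 11.10 and 12.15 at 1 week, with 9.49 and 9.53 in sham RV (change -1.07 ± 0.31, adjusted p = 0.24). Col1a1 stood at -0.999 ± 0.38 with arrays that overlapped (10.35 and 11.13 at 6 weeks, 11.07 and 12.40 at 1 week, adjusted p = 0.42). Both remained above sham RV on every array. Of 22 collagen genes 17 had a negative change, 5 were lower and 1 higher at an unadjusted p under 0.05, and the median was -0.23. The collagen median was 0.06 without 1-week array 2 (0 lower, 2 higher), -0.57 without 1-week array 1 (15 lower, 1 higher), -0.09 without 6-week array 1 (0 lower, 2 higher) and -0.42 without 6-week array 2, so its sign rests on 1-week array 2. Elastin, Eln, stood at -0.93 ± 0.28 (8.11 and 8.57 at 6 weeks, against 8.80 and 9.73 at 1 week, adjusted p = 0.27). Adamts12, a secreted metalloprotease, stood at -0.77 ± 0.18 (adjusted p = 0.16), and the collagen chaperone Serpinh1 at -0.38 ± 0.13 (adjusted p = 0.37).

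The matrix glycoproteins and proteoglycans held members on both sides, 18 positive and 17 negative. Fmod, fibromodulin, which binds collagen fibrils, read 8.37 and 10.02 at 6 weeks, against 6.39 and 7.36 at 1 week, with 6.76 and 6.42 in sham RV (change 2.32 ± 0.44, 95% interval 1.35 to 3.30, adjusted p = 0.071). Comp, cartilage oligomeric matrix protein, read 8.14 and 9.46 at 6 weeks, against 6.09 and 7.03 at 1 week, with 6.27 and 6.31 in sham RV (change 2.24 ± 0.40, adjusted p = 0.061). The arrays of the 2 times did not overlap for either gene, array 2 was the higher at both times, and neither passed. Prelp, a related proteoglycan, stood at 0.74 ± 0.24 (adjusted p = 0.33). Postn, periostin of activated fibroblasts, was -0.01 ± 0.51 with 10.75 and 11.52 at 6 weeks and 10.16 and 12.15 at 1 week, against 7.87 and 8.25 in sham RV. Of 35 matrix glycoproteins and proteoglycans 8 were higher and 4 lower at an unadjusted p under 0.05, against 4.27% and 5.48% of all genes, with a median of 0.06. The 2 arrays of a time differed widely in this list: the mean level was 8.97 and 9.61 at 6 weeks, 8.59 and 9.65 at 1 week, and 8.06 and 8.07 in sham RV. Its median was 0.32 without 1-week array 2, -0.48 without 1-week array 1, 0.34 without 6-week array 1 and -0.22 without 6-week array 2. Fibroblast markers had a median of -0.07 over 22 genes, of which 0 passed and 3 were higher at an unadjusted p under 0.05 (Pi16, Wif1 and Dcn). That median was 0.07 without 1-week array 2 (0 lower, 5 higher) and -0.37 without 1-week array 1 (12 lower, 1 higher), and -0.02 and -0.25 without 6-week arrays 1 and 2, so the sign rests on 1 array.

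**Figure D4:**
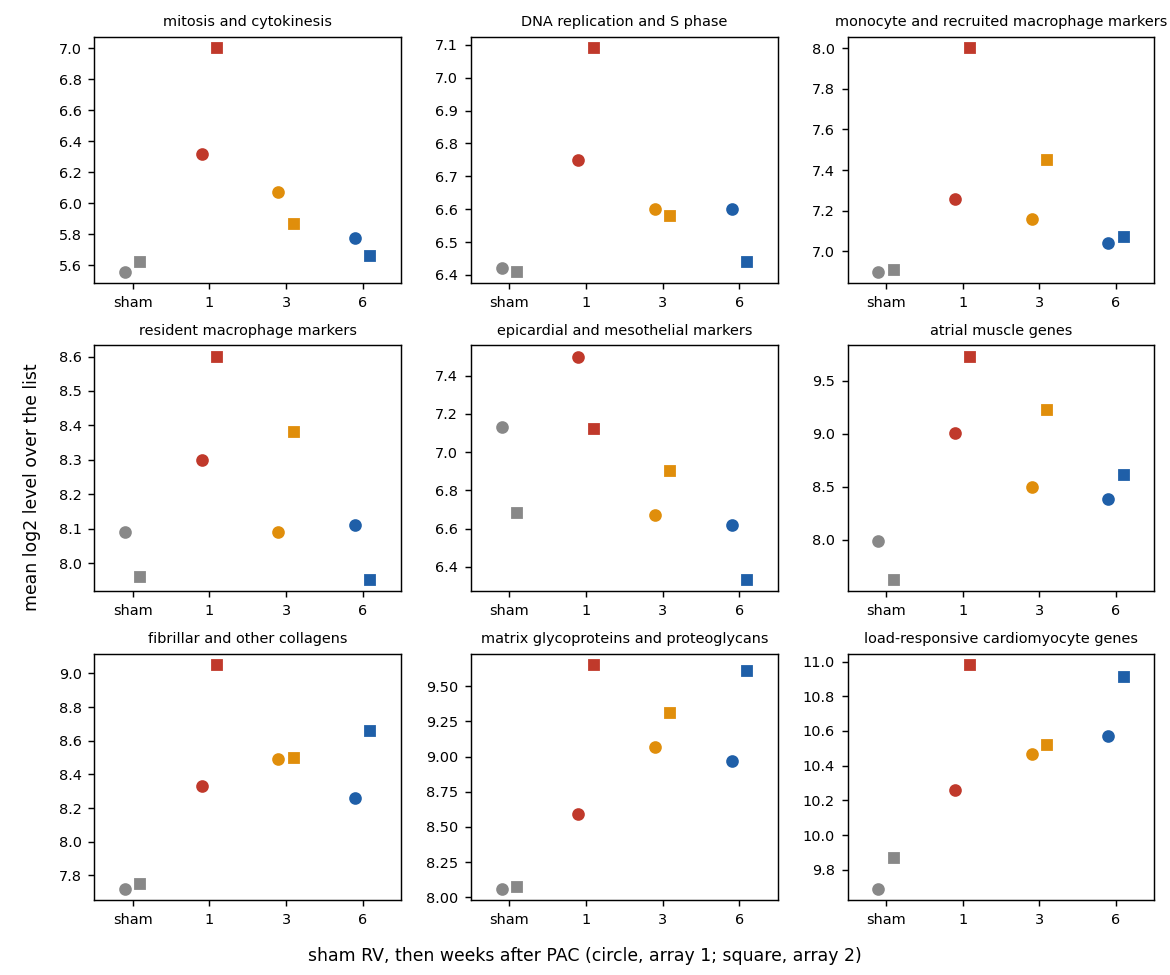
Mean log2 level (vertical axis) of 9 gene lists on each RV array, in sham RV and 1, 3 and 6 weeks after PAC (horizontal axis), with array 1 as circle and array 2 as square. Mitosis genes stand at 5.78 and 5.66 at 6 weeks, against 6.32 and 7.0 at 1 week, while load-responsive genes stand above sham at each time.

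No macrophage gene passed, and most of the listed ones had negative differences. Of 27 markers of monocytes and recruited macrophages 26 had a negative change, with a median of -0.60. At an unadjusted p under 0.05, 19 were lower and 0 higher, against 5.48% and 4.27% of all genes. For 19 the 6-week arrays lay below the 1-week arrays without overlap (17.2% of all genes did). Ccr2, the receptor that draws monocytes out of the blood, read 6.53 and 6.56 at 6 weeks, against 7.26 and 8.62 at 1 week, with 6.59 and 6.51 in sham RV. The 6-week arrays were at the sham level, and the change was -1.40 ± 0.31 (adjusted p = 0.13). Arg1, arginase, stood at -0.97 ± 0.17 (adjusted p = 0.059), Cybb, the oxidase subunit of phagocytes, at -0.89 ± 0.22 (adjusted p = 0.16) and the Fc receptor Fcgr3 at -0.58 ± 0.14 (adjusted p = 0.15). The receptor Csf1r, on which macrophages depend, read 8.70 and 8.55 at 6 weeks, against 9.04 and 9.43 at 1 week (adjusted p = 0.10). All 27 markers were higher on 1-week array 2 than on array 1, and the median was -0.25 without array 2 and -0.94 without array 1. So were 29 of 31 cytosolic ribosomal protein genes and 33 of 35 matrix glycoproteins and proteoglycans, but only 4 of 16 epicardial and mesothelial markers. The share of all genes higher on array 2 was not counted. The atrial markers were also higher on 1-week array 2 (10.23) than on array 1 (8.88), and their part was not tested. Among 12 markers of resident macrophages 7 were lower and 0 higher at an unadjusted p under 0.05, with a median of -0.45, led by Folr2 (-0.53 ± 0.13, adjusted p = 0.15), F13a1 (-0.48 ± 0.12, adjusted p = 0.17) and the scavenger receptor Cd163 (-0.72 ± 0.20, adjusted p = 0.23).

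Complement and chemokine genes had more members lower than higher in level at 6 weeks, and none passed. Of 17 complement genes 7 were lower and 1 higher at an unadjusted p under 0.05, against 5.48% and 4.27% of all genes (median -0.33, 0 passed). The median was -0.12 with 4 lower when 1-week array 2 was left out. Factor B, Cfb, stood at -1.09 ± 0.26 (adjusted p = 0.16) and the anaphylatoxin receptor C3ar1 at -0.89 ± 0.17 (7.76 and 7.74 at 6 weeks, against 8.29 and 8.97 at 1 week, adjusted p = 0.075). C7, a component of the membrane attack complex, went the other way at 1.01 ± 0.22, with 8.70 and 9.32 at 6 weeks, against 7.91 and 8.10 at 1 week (adjusted p = 0.12). In sham RV C7 read 9.33 and 9.001, so the 1-week arrays were the low ones. Of 32 chemokines and cytokines 8 were lower and 3 higher at an unadjusted p under 0.05, against 5.48% and 4.27% of all genes. The macrophage chemokines Ccl6 (-0.97 ± 0.29, adjusted p = 0.26) and Ccl9 (-0.79 ± 0.24, adjusted p = 0.29) were lower and Cxcl12 (0.49 ± 0.13, adjusted p = 0.23) higher. The median of that list was -0.18, and -0.03 with 2 lower and 2 higher without 1-week array 2. Genes of the interferon response had a median of -0.26 over 25 members, 24 of them negative, with 0 past an unadjusted p under 0.05. For 14 the 6-week arrays lay below the 1-week arrays without overlap, against 17.2% of all genes. The mean level of this list was 7.28 and 8.14 on the 3-week PAC arrays, which enter the estimate of the spread. Genes of antigen presentation by MHC class II had a median of -0.17 over 12, with Cd74 at -0.48 ± 0.17 (adjusted p = 0.38).

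Markers of the outer lining of the heart had a low median with no member past the threshold. Of 16 epicardial and mesothelial markers 10 were lower and 2 higher at an unadjusted p under 0.05, against 5.48% and 4.27% of all genes. The list median was -1.01, with 0 passed. Upk1b, a uroplakin of mesothelium, read 6.27 and 5.49 at 6 weeks, against 8.55 and 7.82 at 1 week, with 7.60 and 6.33 in sham RV. The 1-week arrays were highest and the sham arrays lay between, and the change was -2.31 ± 0.40 (adjusted p = 0.059). Msln, mesothelin, stood at -1.35 ± 0.24 (6.40 and 6.10 at 6 weeks, against 7.92 and 7.28 at 1 week, adjusted p = 0.061), Lrrn4 at -1.67 ± 0.36 (adjusted p = 0.11) and the keratin Krt19 at -1.05 ± 0.22 (adjusted p = 0.11). The mean level of the list was 6.62 and 6.33 at 6 weeks, against 7.5 and 7.12 at 1 week, with 7.13 and 6.68 in sham RV. Its part in other changes was not tested. Without 1-week array 1 the median was -0.68, and without 6-week array 2 it was -0.65.

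Atrial muscle genes were also mostly higher in level on the 1-week arrays, here with array 2 the higher for 11 of 13, a share not counted over all genes. Bmp10, a ligand made by atrial muscle, had the largest difference of all genes, with 4.79 and 4.52 at 6 weeks, against 8.55 and 10.49 at 1 week. Sham RV read 4.28 and 4.64, and the 3-week arrays read 4.52 and 8.79, so levels above background stood on 3 RV arrays. The fitted change of -4.87 ± 1.03 did not pass (adjusted p = 0.11), and no fold is given because the 6-week arrays were below background. The 4 defining atrial markers averaged 6.67 and 5.86 in sham RV, under all 4 arrays compared. Of 13 atrial genes 5 were lower and 0 higher at an unadjusted p under 0.05, against 5.48% and 4.27% of all genes, with a median of -0.52. The 5 were Bmp10, Gja5, Kcnj3, Stard10 and Upk3b, and Upk3b is also 1 of the 3 mesothelial markers. Myl4, Myl7 and Sln were not among them. The list median was -0.33 without 1-week array 2 and -0.86 without 1-week array 1. Gja5, the connexin of atrial muscle and arteries, stood at -0.89 ± 0.33 (7.18 and 7.25 at 6 weeks, against 7.54 and 8.66 at 1 week, adjusted p = 0.40). The potassium channel gene Kcnj3, which atrial muscle uses for its response to acetylcholine, stood at -0.46 ± 0.12 (adjusted p = 0.20). Its 1-week arrays read 8.81 and 8.75, under the 9.06 and 8.845 of sham RV. Neither the source of the atrial RNA on these arrays nor whether it bears on the other changes was tested.

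Vessel genes other than Mmrn1 had differences in both directions, and 0 of them passed. The 25 angiogenic ligands and tip cell genes ranged from -0.83 to 0.86. Angpt1, the ligand that steadies vessels through Tie2, stood at -0.83 ± 0.17 (8.53 and 8.42 at 6 weeks, against 9.36 and 9.25 at 1 week, with 9.85 and 9.52 in sham RV, adjusted p = 0.11). Vegfa stood at 0.34 ± 0.08 (10.71 and 10.68 at 6 weeks, against 10.34 and 10.38 at 1 week, adjusted p = 0.14), and its receptor Kdr at 0.30 ± 0.10 (adjusted p = 0.32). Endothelial identity genes had a median of 0.00 over 31 markers, with 4 higher and 4 lower at an unadjusted p under 0.05. Of 20 smooth muscle and pericyte markers 4 were higher and 0 lower at an unadjusted p under 0.05 (median 0.11), against 4.27% and 5.48% of all genes. Among those higher were Higd1b (0.47 ± 0.12, adjusted p = 0.20) and smooth muscle myosin Myh11 (0.38 ± 0.15, adjusted p = 0.43).

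Energy and ion handling differed little as groups. The median was 0.02 over 33 genes of fatty acid oxidation, -0.03 over 55 of the respiratory chain and citrate cycle and 0.06 over 27 of glycolysis, with 0 passed in each. At an unadjusted p under 0.05 the respiratory chain list had 0 genes, the fatty acid list 1 (Angptl4, lower) and the glycolysis list 3 higher and 1 lower. Pfkfb2, which makes the activator of phosphofructokinase in heart, stood at 0.60 ± 0.17 (10.92 and 10.86 at 6 weeks, against 10.63 and 9.96 at 1 week, adjusted p = 0.23). The fatty acid median was -0.15 without 1-week array 2 and 0.20 without 1-week array 1. Among 35 genes of calcium cycling and ion channels 7 were lower and 2 higher at an unadjusted p under 0.05 (median -0.03), against 5.48% and 4.27% of all genes. Those lower included the potassium channels Kcnq1 (8.42 and 8.22 at 6 weeks, against 8.71 and 8.87 at 1 week, change -0.47 ± 0.10, adjusted p = 0.11), Kcnj5 (-0.36 ± 0.12, adjusted p = 0.32) and Kcnh2 (-0.37 ± 0.12, adjusted p = 0.34). Among 25 cardiac transcription factors Tbx5 stood at -0.48 ± 0.11 (8.04 and 8.06 at 6 weeks, against 8.41 and 8.66 at 1 week, adjusted p = 0.15), Tbx3 at 0.37 ± 0.09 (adjusted p = 0.17) and Hand1 at 0.38 ± 0.11 (adjusted p = 0.26).

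**Figure D5:**
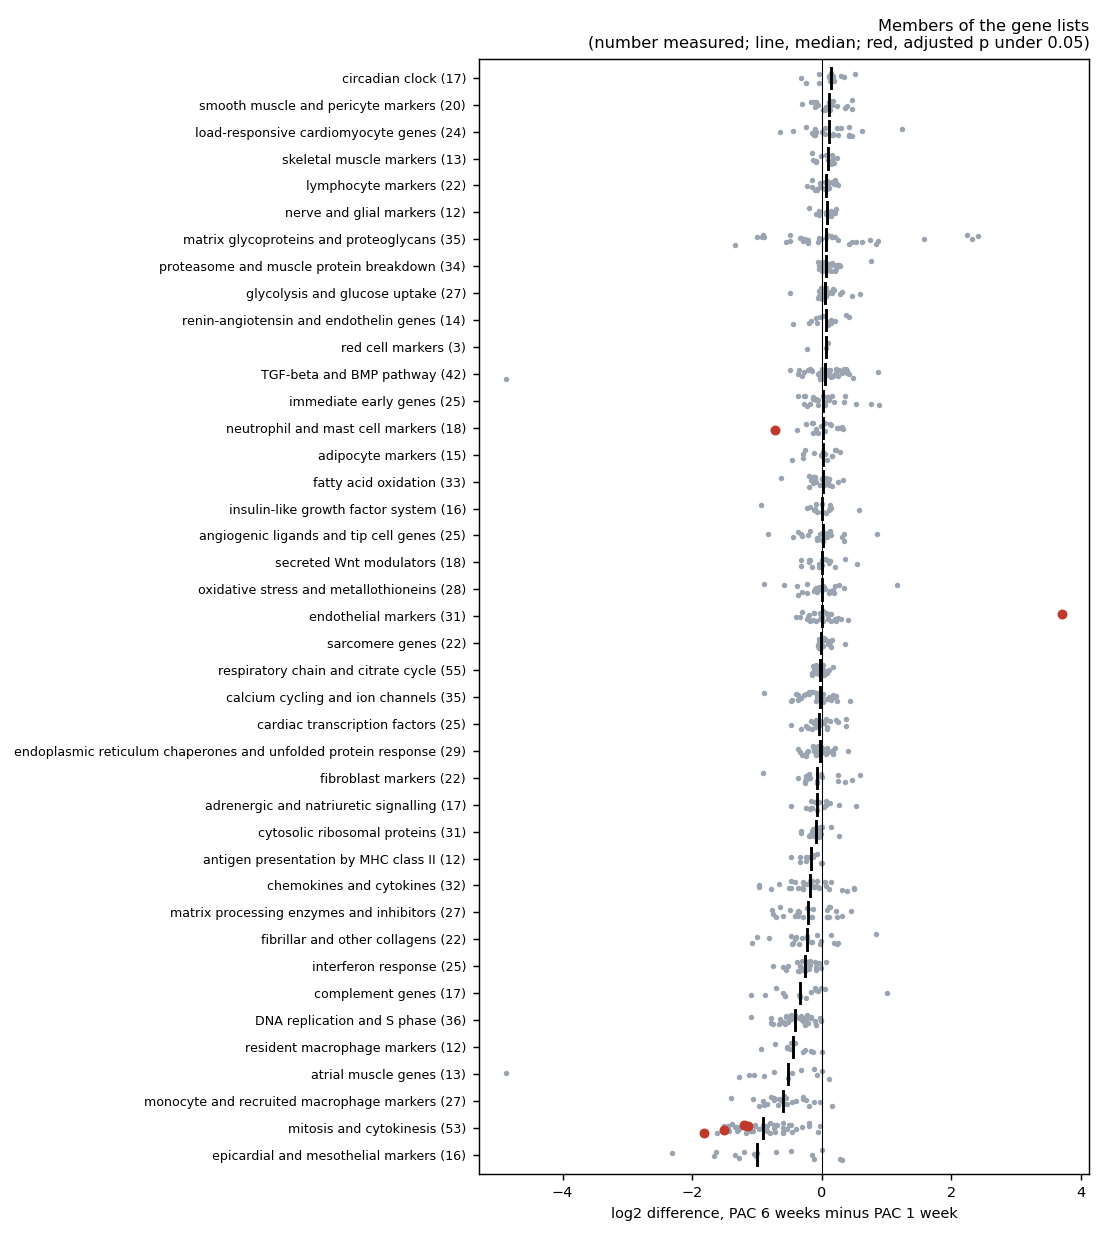
Log2 difference between 6 weeks and 1 week (horizontal axis) of each measured member of the 41 gene lists (rows, number measured in brackets), with the list median as a line and genes that passed in red. The medians run from -1.01 for epicardial and mesothelial markers to 0.13 for the circadian clock.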

How the data were processed

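Right and left ventricles of mice were measured on 12 Affymetrix whole-transcript arrays in 6 groups of 2. The log2 expression values were deposited by the authors, who made them with RMA in Affymetrix Power Tools per the submitters' processing notes. Their versions, library files and build: not given in the sources used here. Values ran from 1.71 to 14.78, with array medians of 6.32 to 6.40, and were not rescaled. Of 35556 probe sets 21789 carried 1 gene in GEO's platform annotation, 1621 several and 12146 none. For 999 genes with several probe sets the one with the highest mean over 12 arrays was kept. RMA values carry no detection call, and the number of arrays limits the precision.

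Group means were estimated from the 12 arrays together by limma 3.58.1 under R 4.3.3 (6 residual and 4.6 prior degrees of freedom), tested on simulated data. The contrast was 6 weeks minus 1 week, two-sided, with Benjamini-Hochberg adjustment over 19938 genes. With 2 arrays a time, exact permutation reaches a p of 0.33 at the lowest. The comparison, its members and the 41 gene lists (974 different measured genes) were chosen with earlier results of these data known, so no list was tested as a set.

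Genes were named by rule: up to 15 decreases and 15 increases that passed without overlap of arrays, up to 5 members a list (passing ones first, then by p), and 10 genes in any case. Small RNA genes, predicted models and receptors of smell were counted without being named. The alternatives were loess scaling, the mean over probe sets, a filter at the median level of 6.74, a trended and robust prior, only the 4 arrays compared, a replicate block, and each array left out. Promoter letters were counted in RefSeq windows of 300 bases. Left ventricle arrays enter the estimate of the spread and the choice of probe set.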

Additional observations from a re-analysis of the deposited data

How the results depend on the processing

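The direction of all 19 genes that passed was the same under the settings in which they could be tested, and Mmrn1 passed in all 18. Most settings could not change a direction. The prior, the filter, the block, the fit to 4 arrays and the loss of other groups' arrays leave the compared difference as it is. Leaving out 1 of the 4 arrays compared cannot turn a sign where arrays do not overlap. Only loess scaling and the mean over probe sets could have done so. The count of 19 (7 higher, 12 lower) was 83 with a trended and robust prior (26 higher, 57 lower), 32 without genes below the median level (15 higher, 17 lower) and 1 with only the 4 arrays compared (1 higher, 0 lower, with 1228 genes at an unadjusted p under 0.05). With loess scaling it was 21, of which 16 were among the 19, and with the mean over probe sets 19. Leaving out single arrays gave 1 to 488 genes, 1 to 60 higher and 0 to 428 lower. Where 1 array is left in a group, it is assumed to vary like the other groups. The labels give all groups the numbers 1 and 2 but no shared litter or day, so the numbers are not taken as pairs. The deviations of same-numbered 6-week and 1-week arrays correlated at 0.37 over genes (0.26 for each of these with the 3-week PAC arrays), and with a replicate block 11 genes passed (4 higher, 7 lower), 9 of them among the 19 (Abra, Ccnb2, Cpxm2, Epn3, Knl1, Mest, Mmrn1, Pxdn and Top2a), so 10 of the 19 calls were lost. The median of the skeletal muscle list (0.10) changed sign, to -0.08 without genes below the median level and to -0.03 without 6-week array 1, and was 0.23 without 6-week array 2; the cause was not tested. The median SE of a change was 0.112 over genes, and levels near background understate a change.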

Other observations

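Genes of protein breakdown had mostly small positive differences at 6 weeks. Of 34 proteasome and muscle protein breakdown genes 26 had a positive change, and for 21 the 6-week arrays lay above the 1-week arrays without overlap, against 18.4% of all genes; the median was 0.06 and 0 passed by limma, with 5 higher and 0 lower at an unadjusted p under 0.05. Bnip3, which marks mitochondria for removal, was the furthest at 0.76 ± 0.13 (11.00 and 11.30 at 6 weeks, against 10.37 and 10.42 at 1 week, with 10.46 and 10.36 in sham RV). The autophagy receptor Sqstm1 stood at 0.28 ± 0.08 and the muscle ubiquitin ligase Fbxo32 at 0.26 ± 0.10.

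Of 31 cytosolic ribosomal protein genes 29 had a negative change, each small, with a median of -0.09. On 1-week array 2, 29 of the 31 were higher than on array 1, a share not counted over all genes. Among immediate early genes Nr4a3 stood at 0.76 ± 0.16 (6.78 and 7.07 at 6 weeks, against 6.09 and 6.25 at 1 week) and Fosb at 0.52 ± 0.14 (6.17 and 5.91 at 6 weeks, against 5.6 and 5.44 at 1 week). Agt, angiotensinogen, stood at -0.45 ± 0.10 (6.46 and 6.43 at 6 weeks, against 6.82 and 6.97 at 1 week, with 7.05 and 7.09 in sham RV). The fetal growth factor gene Igf2 stood at -0.94 ± 0.24 (7.55 and 7.08 at 6 weeks, against 7.91 and 8.60 at 1 week). Nox4, an oxidase of stressed muscle and fibroblasts, stood at 1.16 ± 0.40, with 6.73 and 8.31 at 6 weeks, against 6.03 and 6.68 at 1 week and 5.31 and 5.50 in sham RV. None of these passed.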
